A study of Mus musculus with 12 samples.

Results

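The heat shock proteins and J-domain (DnaJ) co-chaperones of mouse liver were followed here through 72 genes among the 19084 with a named probe on the array. They were chosen by symbol alone, as every gene whose name begins with Hsp followed by a family letter or digit, or with Dnaja, Dnajb or Dnajc followed by a digit, and each gene was read through the brightest of its probes. By where their proteins work, 39 belong to the cytosol and nucleus, 13 to the endoplasmic reticulum (ER), 7 to mitochondria and 5 to vesicles and endosomes, 4 could not be placed with confidence, and 4 carry the symbol but are not chaperones. Livers of male C57BL/6 mice were measured on 12 single-colour arrays, 3 for each of 4 groups that held 6 mice each, after a fast of 12 h. ND mice ate a normal diet (12.3% fat) for 24 weeks and were 30 to 33 weeks old. HFD16 and HFD24 mice ate a diet of 36.1% fat with lard, egg yolk, bile salt and 2% cholesterol for 16 or 24 weeks and were 23 to 25 and 31 to 33 weeks old. PTFC mice, also 31 to 33 weeks old, ate that high-fat diet for 24 weeks and received PTFC, a citrus flavonoid extract, by mouth at 50 mg/kg each day over the last 18 weeks, whereas the other groups received saline. Age therefore differs in each comparison with HFD16. The labels number the arrays 1 to 3 in a group without saying that each stands for a separate animal, so the p-values below speak for the spread among these arrays alone, part of which may be technical.

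Chaperones bind unfolded proteins and help them reach or regain their shape. In the cytosol, Hsp70 proteins do this with J-domain proteins that deliver clients and trigger ATP hydrolysis, Hsp110 proteins that exchange the nucleotide, Hsp90 proteins that mature signalling proteins and small heat shock proteins that hold aggregating clients. Heat shock factor 1 switches on the inducible members when unfolded protein builds up, and a separate set, led by the Hsp70 of the ER, responds to unfolded protein in the ER, an organelle that is large in hepatocytes because they secrete most plasma proteins.

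The promoters of the members on which the results below turn are shown because they hold, or in Hspa1l lack, letters to which regulators of the cytosolic or ER stress response are known to bind. Each line is the 250 bases upstream of the first transcribed base, read 5′ to 3′ on the gene's own strand, from the RefSeq promoter table of mouse build GRCm38.p6. In the first 4, capitals mark the 2-unit heat shock element GAANNTTC, the core to which heat shock factors bind. In the last 2, capitals mark the ER stress element, which is CCAAT, any 9 bases and CCACG, on either strand. The windows lie at chr17:34972157-34972406 (minus strand) for Hspa1a, chr17:34959239-34959488 (minus strand) for Hspa1b, chr17:34972453-34972702 (plus strand) for Hspa1l, chr5:135887669-135887918 (plus strand) for Hspb1, chr2:34771840-34772089 (plus strand) for Hspa5 and chr10:86705445-86705694 (minus strand) for Hsp90b1.
Hspa1a: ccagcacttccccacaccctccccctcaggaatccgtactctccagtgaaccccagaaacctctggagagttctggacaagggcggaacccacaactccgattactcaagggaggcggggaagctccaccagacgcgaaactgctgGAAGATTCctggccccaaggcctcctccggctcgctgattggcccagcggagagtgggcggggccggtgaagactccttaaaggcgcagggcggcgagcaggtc
Hspa1b: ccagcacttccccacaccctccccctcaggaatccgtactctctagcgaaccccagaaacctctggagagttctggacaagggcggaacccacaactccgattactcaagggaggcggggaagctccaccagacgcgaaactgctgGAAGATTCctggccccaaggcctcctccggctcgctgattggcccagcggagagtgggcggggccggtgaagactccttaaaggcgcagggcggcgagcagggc
Hspa1l: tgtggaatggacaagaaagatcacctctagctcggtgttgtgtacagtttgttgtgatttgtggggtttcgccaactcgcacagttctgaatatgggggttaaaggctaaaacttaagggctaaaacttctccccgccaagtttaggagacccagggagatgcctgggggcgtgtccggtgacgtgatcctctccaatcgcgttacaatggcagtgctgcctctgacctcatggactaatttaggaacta
Hspb1: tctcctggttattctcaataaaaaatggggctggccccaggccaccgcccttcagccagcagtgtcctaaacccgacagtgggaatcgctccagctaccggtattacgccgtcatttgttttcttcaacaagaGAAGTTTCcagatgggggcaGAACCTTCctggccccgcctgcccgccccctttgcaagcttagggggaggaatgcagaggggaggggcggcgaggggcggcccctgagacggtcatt
Hspa5: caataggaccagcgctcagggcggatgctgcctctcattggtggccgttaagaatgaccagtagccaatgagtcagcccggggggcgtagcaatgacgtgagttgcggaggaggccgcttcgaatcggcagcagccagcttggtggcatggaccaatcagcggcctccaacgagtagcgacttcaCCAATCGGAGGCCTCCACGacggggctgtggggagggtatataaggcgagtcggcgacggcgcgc
Hsp90b1: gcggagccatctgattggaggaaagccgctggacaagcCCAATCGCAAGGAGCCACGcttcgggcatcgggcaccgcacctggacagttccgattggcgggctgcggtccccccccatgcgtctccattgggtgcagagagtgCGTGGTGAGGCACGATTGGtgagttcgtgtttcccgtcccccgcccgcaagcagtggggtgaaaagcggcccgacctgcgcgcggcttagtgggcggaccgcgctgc

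Hspa1a and Hspa1b, the stress-inducible Hsp70 genes, have upstream sequences that differ at 3 of 250 bases, and each holds 1 GAANNTTC match. Hspa1l, the testis-type Hsp70, is transcribed away from Hspa1a, with 547 bases between the first transcribed bases, and no GAANNTTC lies in its window. Hspb1 holds 2 such matches, Hspa5 1 ER stress element and Hsp90b1 2. Over the full windows of 250 bases before to 50 after the start, 60 of the 72 members had an entry. GAANNTTC, searched on both strands, was found in 13 of those 60 (21.7%), against 9.04% of the 27025 genes in the table. The other 2-unit form, TTCNNGAA, was found in 5 (8.33%, against 9.6%). The 3-unit element, GAA and TTC in alternation with 2 bases between units, which contains both 2-unit forms, was found in 3 (Dnajb6, Hspe1 and Hsph1; 5%, against 0.662%). The ER stress element was found in 3 (Dnajc3, Hsp90b1 and Hspa5; 5%, against 0.137%). A match is a description of letters and not evidence of binding.

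All 72 members had an intensity above 0 on every array, and none was removed by a filter. Their probes spanned mean log2 intensities from 4.28 for Dnajb7 to 15.97 for Hsp90aa1 in the cytosol, 8.37 for Dnajc25 to 15.81 for Hsp90b1 in the ER, and 10.64 for Dnajc11 to 15.04 for Hspa9 in mitochondria. Of the members, 17 lay in the brightest 10% of genes and 5 in the dimmest 25%. Signals of different probes are not levels of RNA relative to each other. Hspa8, Hsp90ab1 and Hspd1, the constitutive Hsp70, the constitutive Hsp90 and the mitochondrial Hsp60, had no probe under the symbol rule. They are therefore not among the 72 members and were not analysed here. Array medians lay between 249 and 408, and arrays correlated at a median r of 0.988 within a group and 0.980 between groups. The liver identity of the samples is seen in 7 measured hepatocyte markers, whose summed intensity ran from 1458637 to 2089623 over the 12 arrays. The marker lists of other cells moved with diet. Macrophage markers passed the test as higher in HFD24 than in ND in 7 of 7, with summed intensity from 14246 to 37844 in ND, 35610 to 152208 in HFD16, 101310 to 160998 in HFD24 and 63091 to 79497 in PTFC. Stellate and matrix markers were higher in 7 of 8 and lower in 1, with sums from 40625 to 75924 in ND, 81476 to 152337 in HFD16, 109703 to 138084 in HFD24 and 97946 to 157568 in PTFC. No measured marker of any list was at 0 on any array. In whole liver, fewer cells of a type and less RNA per cell cannot be told apart, and the part of cell composition in the results below was not tested except where a value is given.

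After 24 weeks of high-fat diet the chaperones did not move as a block. The inducible Hsp70 Hspa1a rose 5.60-fold (2.48 on the log2 scale, or 3.25 without HFD24 replicate 1) and the J protein Dnajb13 rose 3.03-fold, while the small heat shock protein Hspb1, the testis-type Hsp70 Hspa1l, the cytosolic J protein Dnaja2 and 3 J proteins of the ER membrane (Dnajb14, Dnajc14 and Dnajc25) fell. Of the 72 members, 8 passed the test (2 higher and 6 lower), or 11.1%, against 18.3% of all genes tested (9.97% higher and 8.28% lower). Between HFD24 and ND, 15 members had arrays that did not overlap (6 higher and 9 lower), or 20.8%, against 33.6% of all genes (15.5% higher and 18.1% lower). The share of members that passed was thus below the background. A gene passed at an adjusted p under 0.05 (limma over all genes, Benjamini-Hochberg adjustment). The median member differed by -0.05 on the log2 scale and the median gene by -0.06. The count was 4 without ND replicate 1, 5 without HFD24 replicate 3 and 16 without ND replicate 3. Over all genes 4939 passed without ND replicate 3, against 3483 with every array.

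**Figure D1:**
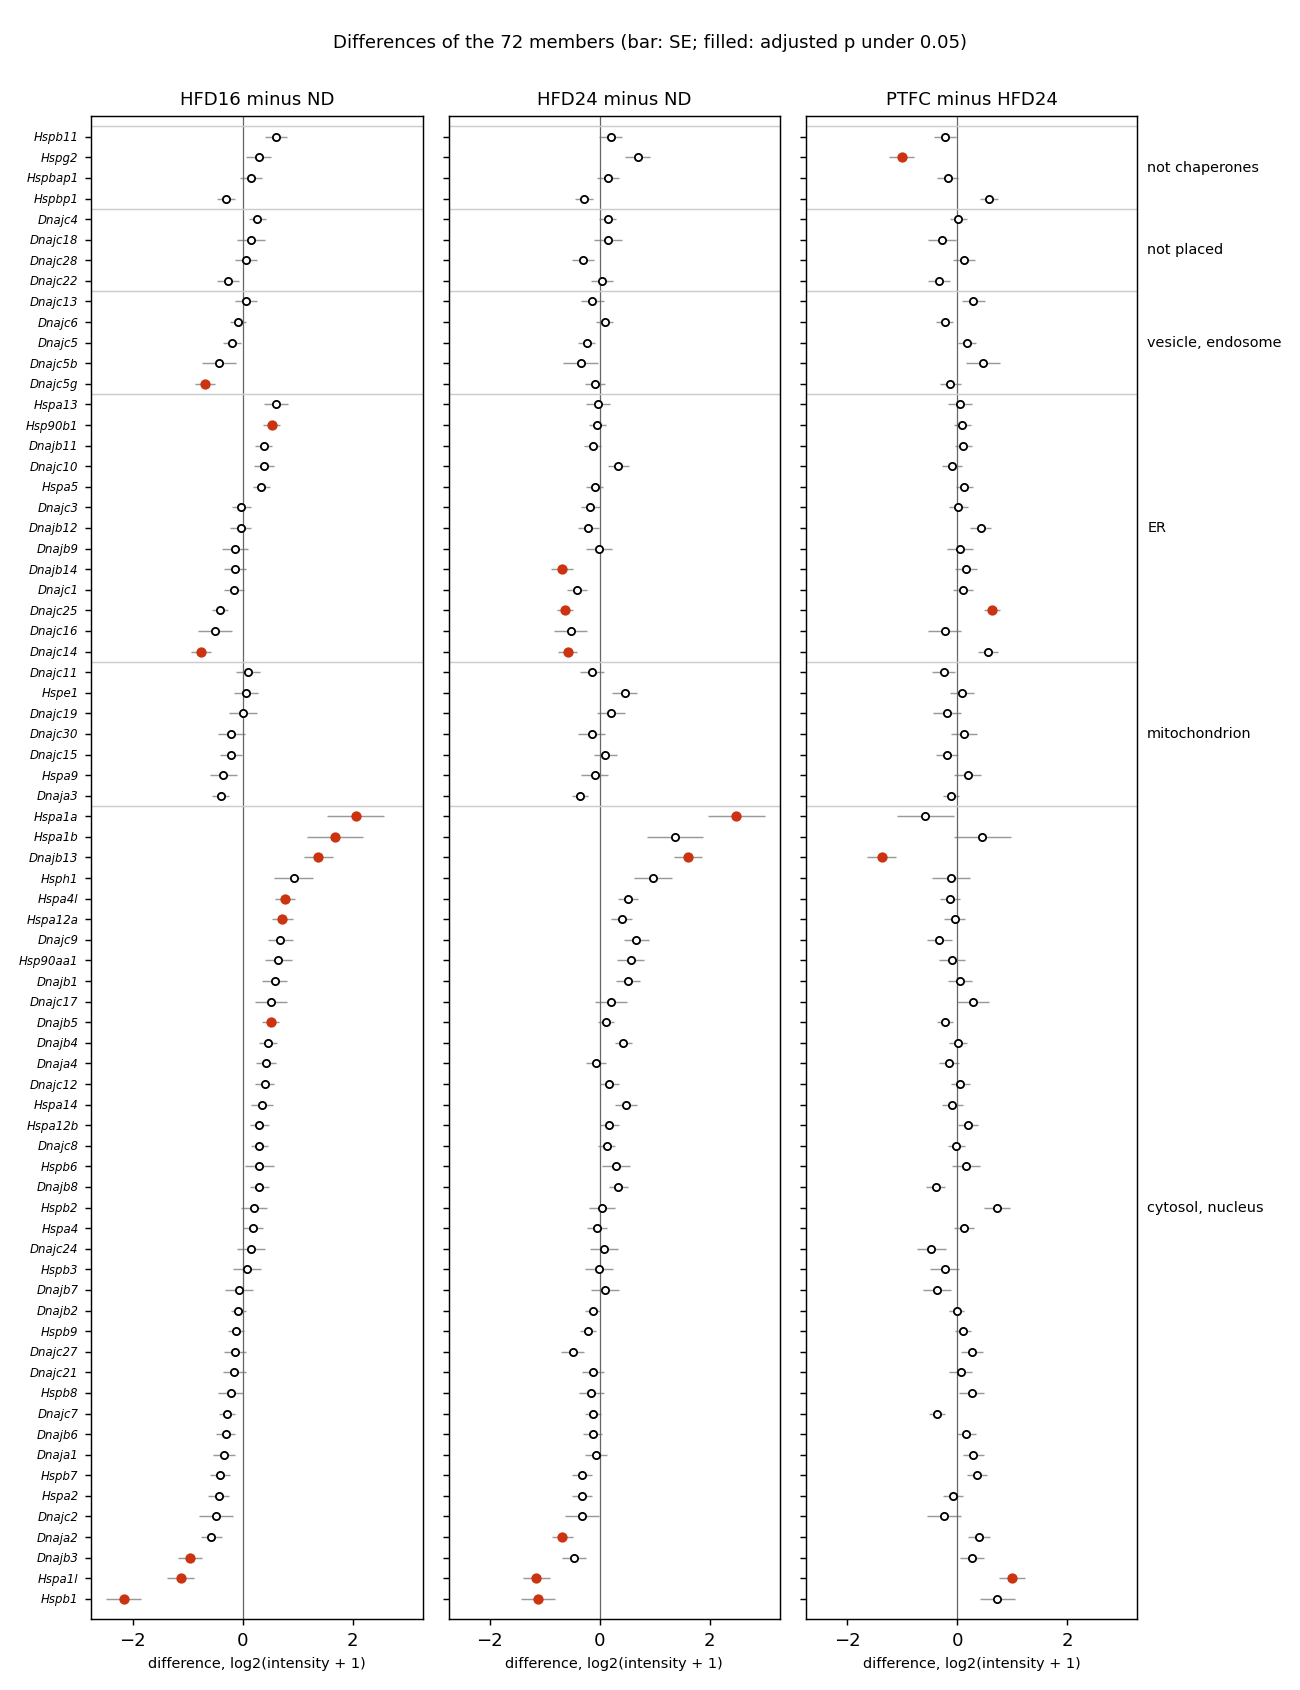
Differences between groups for the 72 members, on the log2(intensity + 1) scale (horizontal axis), with members grouped by compartment and 1 panel for each of HFD16 minus ND, HFD24 minus ND and PTFC minus HFD24; filled points passed the test and open points did not. Bars give the SE. In HFD16 minus ND 12 members are filled, in HFD24 minus ND 8 and in PTFC minus HFD24 4, and neighbouring panels share the ND or the HFD24 arrays.

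Among the heat-inducible genes of the cytosol, Hspa1a gave the largest rise. Its intensities were 127.4, 195.9 and 212.6 in ND, 680.3, 835.7 and 417 in HFD16, 214.7, 1648 and 1570 in HFD24, and 693.8, 723.3 and 639.6 in PTFC. The ND arrays were the 3 lowest of all 12, but HFD24 replicate 1 lay just above them, at a small fraction of the level of the other HFD24 arrays. HFD24 exceeded ND by 2.48 ± 0.52 (log2 difference ± SE, n = 3 and 3; limma adjusted p = 0.00601), and by 3.25 without HFD24 replicate 1 (limma adjusted p = 0.000669). HFD16 exceeded ND by 2.06 ± 0.52 (limma adjusted p = 0.0174), a call that was lost without ND replicate 1 or HFD16 replicate 2 (limma adjusted p = 0.0783 and 0.0554). PTFC exceeded ND by 1.91 ± 0.52, with arrays that did not overlap, but did not pass (limma adjusted p = 0.0712). The PTFC arrays lay together, at a log2 SD of 0.15 against 1.39 in HFD24. PTFC minus HFD24 was -0.58 ± 0.52 (limma adjusted p = 0.534).

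Hspa1b encodes a protein nearly identical to that of Hspa1a, and RNA of the pair could bind the same probe, so the split between them is uncertain. Its intensities were 5271, 9309 and 3755 in ND, 17470, 26864 and 12652 in HFD16, 6105, 28862 and 17101 in HFD24, and 12300, 22079 and 34985 in PTFC. All HFD16 and PTFC arrays exceeded all ND arrays, whereas HFD24 replicate 1 fell among the ND arrays. Hspa1b rose in HFD16, by 1.67 ± 0.51, or 3.19-fold (limma adjusted p = 0.0382), and lost the call without ND replicate 1, ND replicate 3 or any 1 HFD16 array (limma adjusted p from 0.0549 to 0.124). In HFD24 the difference was 1.37 ± 0.51 (limma adjusted p = 0.0801), which passed without HFD24 replicate 1 (limma adjusted p = 0.0203). PTFC minus ND was 1.83 ± 0.51 (limma adjusted p = 0.0778) and PTFC minus HFD24 0.46 ± 0.51 (limma adjusted p = 0.624). The last value turned to -0.14 without HFD24 replicate 1.

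Hsph1, an Hsp110 that exchanges nucleotide on Hsp70, had intensities of 2395, 4760 and 7089 in ND, 9699, 7770 and 7261 in HFD16, 5043, 9944 and 11098 in HFD24, and 7815, 7762 and 8616 in PTFC. Hsp90aa1, the inducible cytosolic Hsp90, had 35912, 45039 and 71310 in ND, 89859, 64742 and 65336 in HFD16, 50611, 73765 and 76260 in HFD24, and 68358, 69252 and 74944 in PTFC. Dnajb1, the J protein induced with Hsp70 by heat, had 8754, 11886 and 10036 in ND, 15740, 17721 and 12177 in HFD16, 9698, 16259 and 17298 in HFD24, and 12259, 16731 and 17483 in PTFC. None of the 3 passed in any comparison. ND replicate 3 stood above the other ND arrays for Hsph1 and Hsp90aa1, and HFD24 replicate 1 stood at the level of ND for all 3. For HFD24 minus ND the differences were 0.96 ± 0.35 for Hsph1 (limma adjusted p = 0.0726), 0.56 ± 0.24 for Hsp90aa1 (limma adjusted p = 0.125) and 0.51 ± 0.22 for Dnajb1 (limma adjusted p = 0.129). For HFD16 minus ND they were 0.93, 0.65 and 0.58 (limma adjusted p = 0.0803, 0.0777 and 0.0827). Without ND replicate 3, Hsph1 and Hsp90aa1 passed in HFD24 minus ND (limma adjusted p = 0.0133 and 0.0131). Without HFD24 replicate 1, Hsph1 and Dnajb1 passed there (limma adjusted p = 0.0364 and 0.0366).

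**Figure D2:**
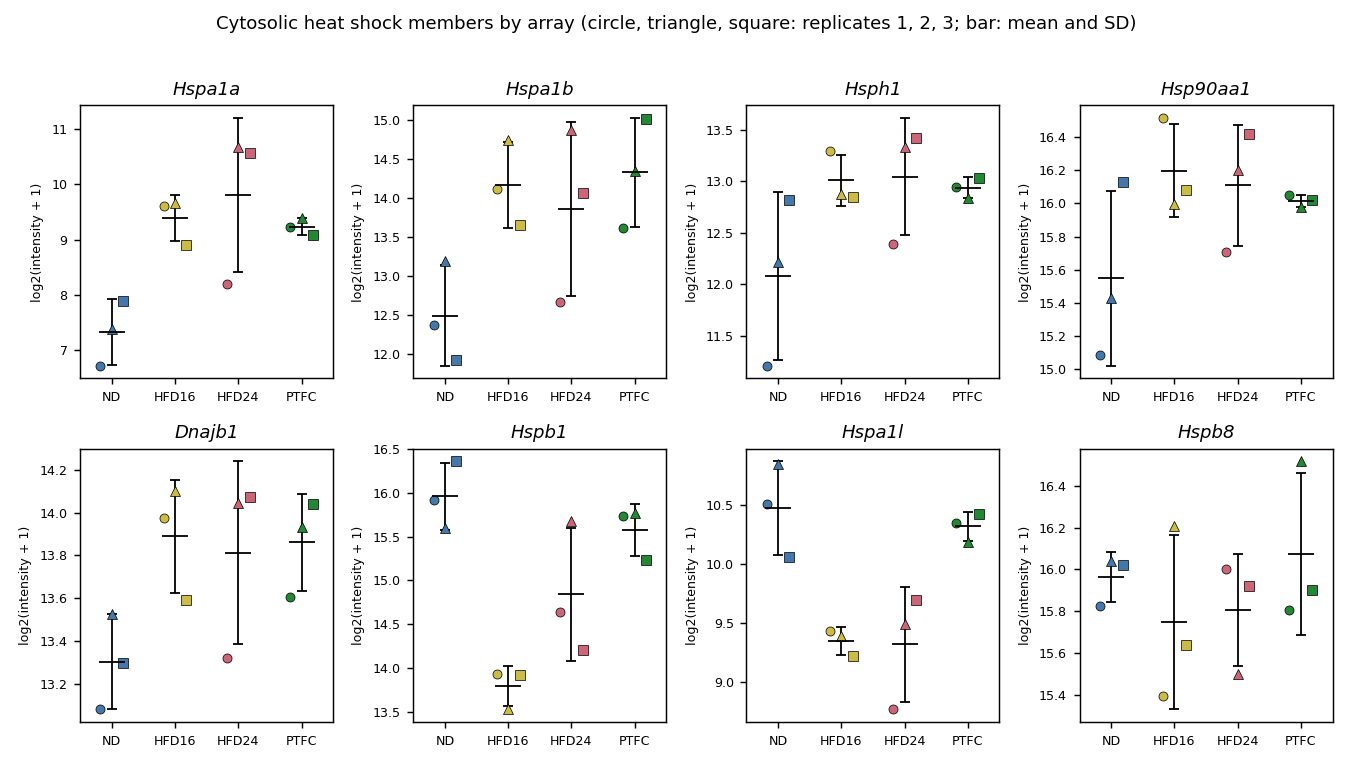
Quantile-normalized log2(intensity + 1) (vertical axis, a separate scale in each panel) of cytosolic members on each array, by group; symbols mark the replicate number, and the bar gives the mean and SD of 3 arrays. HFD24 replicate 1 (circle) lies near the ND arrays for the inducible genes, and the HFD16 arrays lie below all others for Hspb1.

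HFD24 replicate 1 was thus the exception within its group for the inducible genes. The mean log2 intensity of Hspa1a, Hspa1b, Hsph1, Hsp90aa1 and Dnajb1 on an array was 11.69, 12.35 and 12.41 in ND, 13.50, 13.47 and 13.01 in HFD16, 12.46, 13.82 and 13.70 in HFD24, and 13.09, 13.30 and 13.44 in PTFC. Counted from the lowest of the 12 arrays, HFD24 replicate 1 had rank 4 for Hspa1a and rank 3 for the other 4 genes. Its summed macrophage marker intensity, 142910, was not low beside 160998 and 101310 on the other HFD24 arrays. Immediate early genes, which respond within minutes to handling or stress, moved in both directions against ND. In HFD24 minus ND, 3 of 12 were higher (Ier3, Fos and Atf3, by 1.63, 1.26 and 1.24) and 2 lower (Jun and Ier2, by -1.49 and -0.84). In HFD16 minus ND, 1 was higher and 4 were lower. In HFD24 minus HFD16 none passed, but 10 of 12 differences were above 0. The list median there was 0.65, against -0.01 for all genes. Summed intensities ran from 60018 to 68245 in ND, 32991 to 45621 in HFD16, 42426 to 48896 in HFD24 and 42752 to 67093 in PTFC. In PTFC minus HFD24, Atf3 and Ier3 fell by 1.84 and 1.20. The part of handling in the chaperone values was not tested.

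Among partners and other targets of the heat shock system outside the symbol rule, 25 of 28 listed genes were measured. In HFD24 minus ND, 3 rose and 2 fell. Those that rose were Serpinh1, the collagen chaperone of the ER, by 2.25 ± 0.37, Cryab, a small heat shock protein of the crystallin family, by 1.14 ± 0.22, and Chordc1, an Hsp90 co-chaperone, by 0.53 ± 0.16. Those that fell were Bag4 and Bag5, which bind Hsp70, by 0.85 and 0.70. Serpinh1 moved with the stellate and matrix markers, whose sums are given above, and their part in its rise was not tested. In HFD16 minus ND 5 rose, Serpinh1 by 2.08, Cryab by 0.98, Chordc1 by 0.83, Cacybp by 0.63 and St13 by 0.45, and Bag4 fell by 0.91. None passed in PTFC minus HFD24, where 6 of 25 had an unadjusted limma p under 0.05. The cytosolic chaperonin CCT, which folds actin and tubulin, had no subunit of 9 past the limma test in any of the 5 comparisons. Of all genes, 0.0367% to 18.3% passed, depending on the comparison. Between 0 and 3 CCT subunits had an unadjusted p under 0.05.

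Hspb1, a small heat shock protein that keeps unfolded clients soluble and binds actin filaments, fell with high-fat diet, whereas Hspa1a rose. Its intensities were 64488, 49890 and 87451 in ND, 15219, 12115 and 15320 in HFD16, 24283, 49606 and 18910 in HFD24, and 54554, 61136 and 40031 in PTFC. The 3 HFD16 arrays were the lowest of all 12 and did not overlap with any other group. Hspb1 fell in HFD16 by 2.16 ± 0.31, or 4.48-fold (limma adjusted p = 0.00172). It fell in HFD24 by 1.12 ± 0.31, or 2.17-fold (limma adjusted p = 0.0258), with normalized values of ND and HFD24 that overlapped because HFD24 replicate 2 was high. That HFD24 call was lost without any 1 of ND replicate 1, ND replicate 3, HFD24 replicate 1 or HFD24 replicate 3 (limma adjusted p = 0.0723, 0.0697, 0.0951 and 0.0938) and with median centring (0.0583). HFD24 exceeded HFD16 by 1.05 ± 0.31 with arrays that did not overlap, but did not pass (limma adjusted p = 0.302). PTFC minus HFD24 was 0.73 ± 0.31 (limma adjusted p = 0.167), which passed without HFD24 replicate 2 (limma adjusted p = 0.0476). PTFC minus ND was -0.38 (limma adjusted p = 0.611). Hspb8, a small heat shock protein that works with Bag3 in autophagy, was similarly bright, with 59658, 70107 and 66952 in ND, 42885, 73946 and 50340 in HFD16, 64986, 44650 and 56290 in HFD24, and 57222, 104175 and 70477 in PTFC. Its groups overlapped, and HFD16 minus ND was -0.21 (limma adjusted p = 0.532).

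Among members best known from testis or cilia, Hspa1l, Dnajb13, Dnajb3 and Dnajc5g passed in at least 1 comparison. Hspa2, Hspb9, Dnajb7 and Dnajb8, also testis-rich, passed in none, with differences of -0.32, -0.21, 0.10 and 0.33 in HFD24 minus ND (limma adjusted p = 0.246, 0.335, 0.820 and 0.202). These members were grouped after their values were seen. Hspa1l had 1497, 1891 and 954 in ND, 599, 689 and 525 in HFD16, 340, 727 and 850 in HFD24, and 1408, 1234 and 1497 in PTFC. Every array on high-fat diet alone lay below every ND and PTFC array. Hspa1l fell by 1.12 ± 0.24 in HFD16 (limma adjusted p = 0.00913) and by 1.15 ± 0.24 in HFD24 (limma adjusted p = 0.00629), and was 1.00 ± 0.24 higher in PTFC than in HFD24 (limma adjusted p = 0.0350). Dnajb13, a J protein of the radial spokes of cilia and sperm tails, had the opposite pattern. Its intensities were 103, 116 and 121 in ND, 139, 325 and 279 in HFD16, 229, 284 and 339 in HFD24, and 123, 162 and 156 in PTFC. It rose by 1.38 ± 0.26 in HFD16 (limma adjusted p = 0.00483) and by 1.60 ± 0.26 in HFD24 (limma adjusted p = 0.00167), and fell by 1.37 ± 0.26 in PTFC against HFD24 (limma adjusted p = 0.0182). Dnajb3, a testis-rich J protein, had 535, 525 and 331 in ND, 172, 246 and 178 in HFD16, 154, 372 and 410 in HFD24, and 417, 442 and 492 in PTFC. It fell in HFD16 by 0.96 ± 0.22 (limma adjusted p = 0.0116), and without ND replicate 1 the call was lost (limma adjusted p = 0.0524). Dnajc5g, a cysteine string protein that is also testis-rich, had 186, 166.3 and 123.6 in ND, 75.9, 66.8 and 77.5 in HFD16, 69.4, 165.2 and 142.7 in HFD24, and 165.1, 128.4 and 167.9 in PTFC. It fell in HFD16 by 0.68 ± 0.18 (limma adjusted p = 0.0241), a call lost without ND replicate 1 or 2 or HFD16 replicate 2 or 3 (limma adjusted p from 0.0537 to 0.0947). The 5 spermatogenic markers were dim, with summed intensities from 902 to 1500 in ND, 556 to 903 in HFD16, 416 to 984 in HFD24 and 1137 to 1380 in PTFC. Their median difference was -0.53 in HFD24 minus ND, with 4 of 5 below 0, and -0.27 in HFD16 minus ND, with 3 below 0. It was 0.28 in PTFC minus HFD24, with 5 above 0. None of these markers passed in any comparison, and between 0 and 2 had an unadjusted p under 0.05. Their relation to the testis-rich members was not tested.

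The remaining cytosolic members that passed did so in HFD16, apart from Dnaja2. Hspa4l, an Hsp110 relative, had 2459, 2379 and 2253 in ND, 4285, 4592 and 3379 in HFD16, 2861, 2911 and 4596 in HFD24, and 2950, 3169 and 3672 in PTFC. Every array of the other groups lay above every ND array. It rose in HFD16 by 0.77 ± 0.18 (limma adjusted p = 0.0136), and HFD24 minus ND was 0.52 (limma adjusted p = 0.0660). Hspa12a, a distant Hsp70 relative, had 223, 212 and 246 in ND, 309, 337 and 289 in HFD16, 248, 221 and 293 in HFD24, and 293, 331 and 338 in PTFC. In HFD16 it rose by 0.72 ± 0.20 (limma adjusted p = 0.0245), a call lost without ND replicate 1 or 2 or any 1 HFD16 array (limma adjusted p from 0.0577 to 0.0999). Dnajb5, a J protein close to Dnajb1, had 1087, 1041 and 826 in ND, 1182, 1651 and 1272 in HFD16, 950.2, 959.9 and 1231 in HFD24, and 998, 975 and 1059 in PTFC, and its HFD16 arrays lay above all ND arrays. In HFD16 it rose by 0.51 ± 0.15 (limma adjusted p = 0.0317). With the replicate number as a block over the ND and HFD16 arrays, Dnajb5 no longer passed (limma adjusted p = 0.0880, or 0.0617 with the block over all 12 arrays), nor did it without ND replicate 1 or 2 or HFD16 replicate 2 or 3 (limma adjusted p from 0.0725 to 0.106). Dnaja2, a J protein that serves constitutive Hsp70, had 18641, 19234 and 30385 in ND, 13055, 16565 and 14598 in HFD16, 12783, 12073 and 15732 in HFD24, and 16901, 21512 and 17668 in PTFC. It fell in HFD24 by 0.68 ± 0.19 (limma adjusted p = 0.0271), with arrays that did not overlap, and HFD16 minus ND was -0.57 (limma adjusted p = 0.0559). That HFD24 call was lost without HFD24 replicate 1 or 2 (limma adjusted p = 0.0809 and 0.0789), without ND replicate 3 (0.0506) and with median centring (0.176).

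In the ER, 3 membrane-bound J proteins fell at 24 weeks and the ER Hsp90 rose at 16 weeks. In HFD24 minus ND, 3 of 13 members passed, all lower, or 23.1%, against 18.3% of all genes (8.28% lower). The differences of 12 of the 13 were below 0, with a median of -0.17 against -0.06 for all genes, but with median centring 6 were below 0 and the median was 0.0026. Those 3, Dnajc25, Dnajc14 and Dnajb14, sit in the ER membrane. With median centring, and also on the deposited scale, only 1 ER member, Dnajc25, passed in HFD24 minus ND. In HFD16 minus ND, 2 passed, Hsp90b1 higher and Dnajc14 lower, or 15.4%, against 18.1% of all genes. There 7 had arrays that did not overlap (5 higher and 2 lower), or 53.8%, against 35.8% of all genes. In HFD24 minus HFD16 none passed, and 5 had an unadjusted limma p under 0.05. Of the 13 differences there 11 were below 0, as also with median centring and on the deposited scale. The arrays of 5 ER members did not overlap there, all lower in HFD24, or 38.5%, against 16.4% of all genes (10.1% lower).

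Hsp90b1, the ER's Hsp90 (GRP94), had intensities of 58495, 58608 and 44234 in ND, 68659, 79270 and 71196 in HFD16, 55880, 44445 and 46331 in HFD24, and 45483, 57860 and 74614 in PTFC. The HFD16 arrays lay above all ND and HFD24 arrays. Hsp90b1 rose in HFD16 by 0.53 ± 0.15 (limma adjusted p = 0.0331) and was 0.58 ± 0.15 lower in HFD24 than in HFD16 without passing (limma adjusted p = 0.287). The HFD16 call was lost without any 1 of the ND arrays or HFD16 replicates 2 and 3 (limma adjusted p from 0.0542 to 0.0985). On the deposited scale the call was also lost (limma adjusted p = 0.0853). With the replicate number as a block it was lost over all 12 arrays (limma adjusted p = 0.0565) and held over the ND and HFD16 arrays alone (limma adjusted p = 0.0384). Hspa5, the ER's Hsp70 (BiP), had 43782, 46012 and 44709 in ND, 58421, 55535 and 49939 in HFD16, 44621, 35771 and 39303 in HFD24, and 36480, 50966 and 56447 in PTFC. Its HFD16 arrays likewise lay above all ND and HFD24 arrays. HFD16 minus ND was 0.34 (limma adjusted p = 0.136), HFD24 minus HFD16 was -0.44 ± 0.15 (limma adjusted p = 0.388) and HFD24 minus ND was -0.09 (limma adjusted p = 0.714). Dnajb11, a J protein that brings secreted clients to Hspa5, had 10616, 10041 and 8102 in ND, 12299, 12977 and 12309 in HFD16, 9603, 7579 and 8874 in HFD24, and 8510, 10539 and 10209 in PTFC, again highest on the HFD16 arrays. For HFD16 minus ND that probe gave 0.39 and the 2 dimmer probes 0.76 and -0.60. The dimmer probes gave 0.64 and -0.38 for HFD24 minus ND, against -0.13 for the probe used, so its direction in both comparisons depends on the probe. Dnajb9, which is induced by ER stress, lay between 3149 and 5931 and Dnajc3, an inhibitor of the kinase that slows translation in ER stress, between 9393 and 13267 over the 12 arrays, with overlapping groups.

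Outside the symbol rule, all 18 listed ER folding genes were measured. In HFD24 minus ND 2 rose, Sdf2l1, a partner of Dnajb11, by 1.23 ± 0.23 (limma adjusted p = 0.00354) and Pdia4, a disulfide isomerase, by 0.75 ± 0.23 (limma adjusted p = 0.0397). In HFD16 minus ND 6 rose and none fell, with a list median of 0.47 against -0.03 for all genes. They were Sdf2l1, by 1.77, and Pdia4, by 0.94, with Calr, Pdia3, Pdia6 and Herpud1, by 1.05, 1.15, 0.95 and 0.64, the last 4 named after their values were seen. In HFD24 minus HFD16 none passed, the list median was -0.30, and 4 had an unadjusted limma p under 0.05.

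**Figure D3:**
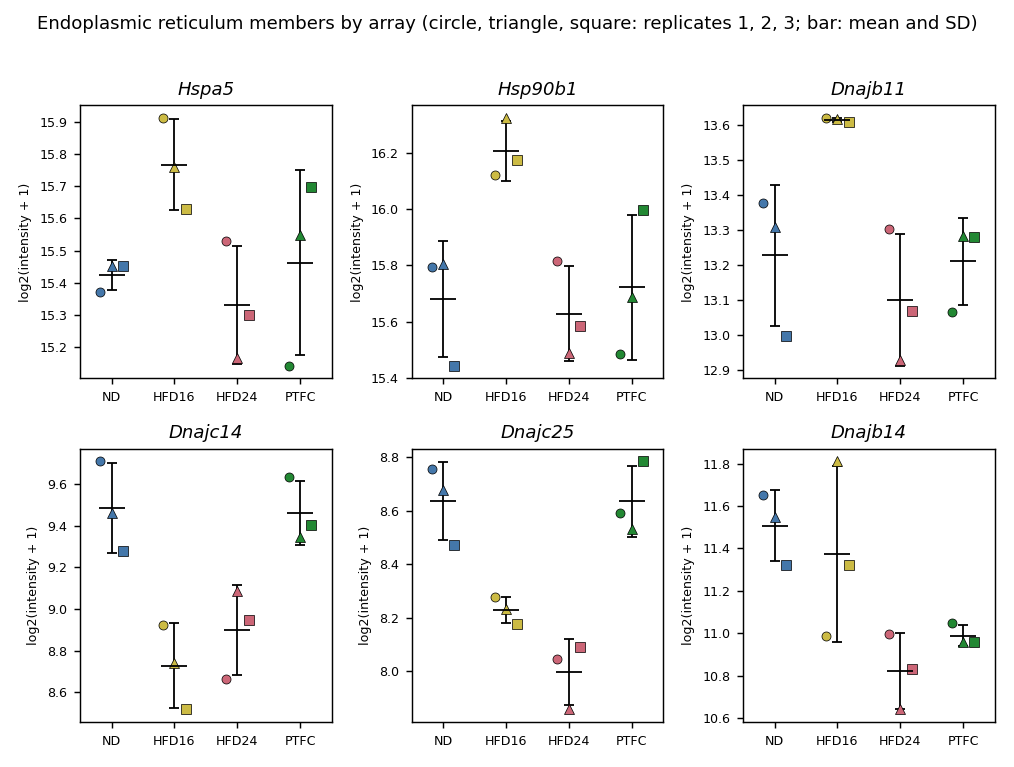
Quantile-normalized log2(intensity + 1) (vertical axis, a separate scale in each panel) of 6 ER members on each array, by group; symbols mark the replicate number, and the bar gives the mean and SD of 3 arrays. The means of Hspa5, Hsp90b1 and Dnajb11 are highest in HFD16, whereas Dnajc25 is lower on every HFD16 and HFD24 array than on any ND or PTFC array.

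The J proteins of the ER membrane named here all had lower means in HFD24 than in ND, but not all passed. Dnajc25, Dnajc14 and Dnajb14 passed. Dnajb12, Dnajc1 and Dnajc16, also bound to that membrane, differed by -0.21, -0.41 and -0.53 without passing (limma adjusted p = 0.466, 0.143 and 0.247). Whether the falls differ in size between these genes was not tested. Dnajc25 had intensities of 482, 455 and 316 in ND, 256, 294 and 246 in HFD16, 190, 234 and 275 in HFD24, and 459, 408 and 527 in PTFC. Every array on high-fat diet alone lay below every ND and PTFC array. Dnajc25 fell in HFD24 by 0.64 ± 0.15 (limma adjusted p = 0.00950) and was 0.64 ± 0.15 higher in PTFC than in HFD24 (limma adjusted p = 0.0294). The fall in HFD24 was lost without ND replicate 1 (limma adjusted p = 0.0505). Dnajc14, which escorts receptors out of the ER, had 885, 756 and 557 in ND, 415, 425 and 314 in HFD16, 309, 546 and 501 in HFD24, and 898, 703 and 786 in PTFC. It fell in HFD16 by 0.76 ± 0.18 (limma adjusted p = 0.0133, or 0.0662 without ND replicate 1 and 0.0619 without HFD16 replicate 3) and in HFD24 by 0.59 ± 0.18 (limma adjusted p = 0.0369). PTFC minus HFD24 was 0.56 ± 0.18, with arrays that did not overlap (limma adjusted p = 0.0763). Dnajb14 had 3212, 3046 and 2435 in ND, 1882, 3803 and 2482 in HFD16, 1885, 1612 and 1880 in HFD24, and 2182, 2104 and 2113 in PTFC. It fell in HFD24 by 0.69 ± 0.20 (limma adjusted p = 0.0319), and its HFD16 arrays spread across the other groups. Its PTFC minus HFD24 was 0.17 (limma adjusted p = 0.658). The HFD24 call of Dnajc14 was lost without ND replicate 1 or 2 or HFD24 replicate 1 or 3 (limma adjusted p from 0.0701 to 0.160), and that of Dnajb14 without ND replicate 1 or 2 or any HFD24 array (from 0.0504 to 0.122). With median centring both calls were lost (limma adjusted p = 0.0598 for Dnajc14 and 0.137 for Dnajb14), as on the deposited scale (0.0615 and 0.0505).

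Outside the ER, the vesicle J proteins ranged from Dnajc5b, between 6.7 and 34, to Dnajc5, the cysteine string protein of secretory vesicles, between 8180 and 12565 over the 12 arrays, and neither passed in any comparison.

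None of the 7 mitochondrial members passed in any comparison by limma, against 0.0367% to 18.3% of all genes, depending on the comparison. Between 0 and 2 of the 7 had an unadjusted p under 0.05. Hspa9, the mitochondrial Hsp70, had intensities of 32189, 31373 and 48460 in ND, 35546, 18257 and 33159 in HFD16, 30506, 37762 and 30050 in HFD24, and 40752, 38044 and 39601 in PTFC. Hspe1, the Hsp10 lid of the mitochondrial chaperonin, had 2491, 2618 and 3977 in ND, 3270, 2712 and 3258 in HFD16, 3728, 4879 and 3492 in HFD24, and 3924, 4512 and 5027 in PTFC. Dnaja3, the J partner of Hspa9, had 27032, 23055 and 30576 in ND, 22248, 19343 and 18297 in HFD16, 18858, 22614 and 19702 in HFD24, and 20048, 20722 and 18869 in PTFC. On the deposited scale all 9 arrays on high-fat diet lay below the ND arrays for Dnaja3, but the normalized values of HFD24 and ND overlapped. Hspe1 differed by 0.45 in HFD24 minus ND (limma adjusted p = 0.175) and passed without ND replicate 3 (limma adjusted p = 0.0289). Among 11 measured folding and protease genes of mitochondria outside the symbol rule, Grpel1, the nucleotide exchange factor of Hspa9, fell by 0.97 in HFD24 and by 1.02 in HFD16 against ND. The protease subunits Clpx and Clpp fell by 0.56 and 0.47 in HFD24, and Hscb, a J protein of iron-sulfur cluster assembly, rose there by 0.92.

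Against HFD24, the extract group had Hspa1l and Dnajc25 higher and Dnajb13 lower, each opposite in sign to its difference between HFD24 and ND, while the inducible Hsp70 genes did not pass. Of 72 members 4 passed (2 higher and 2 lower), or 5.56%, against 6% of all genes (2.96% higher and 3.04% lower). The arrays of 16 members did not overlap (9 higher and 7 lower), or 22.2%, against 31.1% of all genes (15.9% higher and 15.2% lower). The fourth member past the test was Hspg2, or perlecan, a heparan sulfate proteoglycan of basement membranes that carries the symbol by another naming. Its intensities were 1205, 1205 and 1285 in ND, 1502, 1869 and 1121 in HFD16, 1566, 2188 and 2238 in HFD24, and 1483, 1016 and 877 in PTFC. It fell in PTFC against HFD24 by 1.00 ± 0.23 (limma adjusted p = 0.0288). HFD24 minus ND was 0.69 ± 0.23, at the limit of the test (limma adjusted p = 0.0500132). All 8 stellate and matrix markers had differences below 0 in PTFC minus HFD24, and 2 of them passed. Their summed intensities overlapped, from 109703 to 138084 in HFD24 and 97946 to 157568 in PTFC. The part of these markers in the values of Hspg2 was not tested. Of the other symbol matches, Hspbp1, an Hsp70 nucleotide exchange factor, had 13466, 15245 and 10550 in ND, 9118, 11780 and 10744 in HFD16, 8978, 10766 and 11756 in HFD24, and 16150, 15621 and 17647 in PTFC. Its PTFC arrays lay above all HFD16 and HFD24 arrays, and PTFC minus HFD24 was 0.58 (limma adjusted p = 0.0526). Without HFD24 replicate 1 or without PTFC replicate 3 none of the 72 members passed. Over all genes 39 passed without HFD24 replicate 1, against 1145 with every array. The calls of Hspa1l, Dnajc25 and Hspg2 were each lost without at least 5 of the 6 arrays compared, taken 1 at a time (limma adjusted p from 0.0644 to 0.159, 0.0528 to 0.147 and 0.0685 to 0.151), and that of Dnajb13 without HFD24 replicate 1 or PTFC replicate 3 (0.0691 and 0.0967). The call of Hspa1l was also lost without HFD16 replicate 3 (limma adjusted p = 0.0515).

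**Figure D4:**
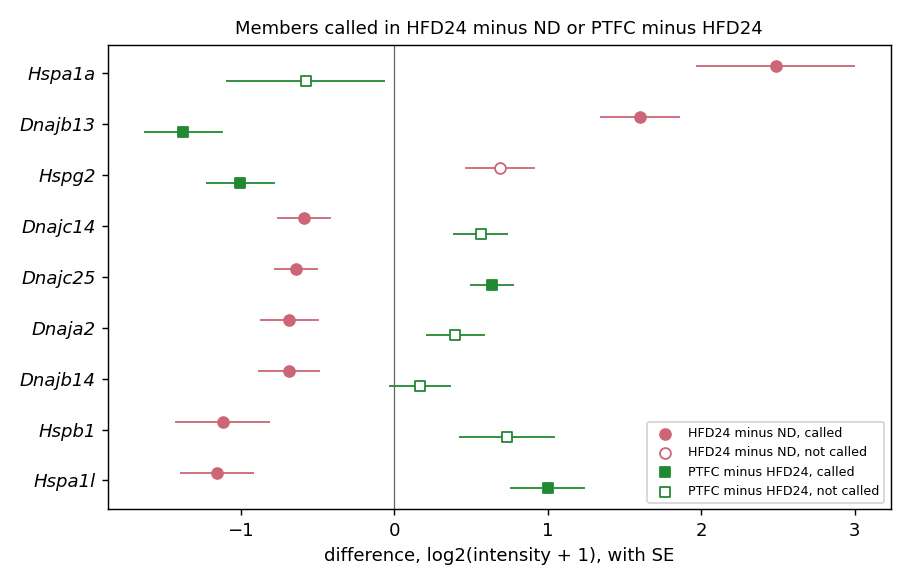
The 9 members that passed in HFD24 minus ND (circles) or PTFC minus HFD24 (squares), with the difference on the log2(intensity + 1) scale and its SE on the horizontal axis; filled symbols passed the test. Both differences contain the same HFD24 arrays, so their signs are not independent. Hspa1a is 1.91 above ND in PTFC, whereas Dnajc25 differs from ND there by -0.0013.

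Because those differences share the HFD24 arrays, the levels against ND are given beside them. In PTFC minus ND the 8 members that had passed in HFD24 minus ND differed by 1.91 for Hspa1a, 0.23 for Dnajb13, -0.15 for Hspa1l, -0.38 for Hspb1, -0.28 for Dnaja2, -0.52 for Dnajb14, -0.02 for Dnajc14 and -0.0013 for Dnajc25. None of the 72 members passed in PTFC minus ND, against 2.33% of all genes, and 12 had an unadjusted limma p under 0.05. The arrays of 22 members did not overlap there (11 higher and 11 lower), or 30.6%, against 22.1% of all genes (10% higher and 12.1% lower). Without HFD24 replicate 1, which belongs to neither group but enters the shared normalization and estimate of spread, Hspa1a and Hspa1b passed (limma adjusted p = 0.00886 and 0.0448).

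At 16 weeks of high-fat diet Hspa1a, Hspa1b, Hspa4l, Hspa12a, Dnajb5, Dnajb13 and Hsp90b1 rose against ND, and Hspb1, Hspa1l, Dnajb3, Dnajc5g and Dnajc14 fell. These 12 of 72 members (7 higher and 5 lower) were 16.7%, near the 18.1% of all genes that passed (10% higher and 8.11% lower). The arrays of 30 did not overlap (20 higher and 10 lower), or 41.7%, against 35.8% of all genes (16.9% higher and 18.9% lower). Among the 39 cytosolic members 9 passed (6 higher and 3 lower), and 19 had arrays that did not overlap, 13 of them higher. The median cytosolic member differed by 0.21 in HFD16 and by 0.08 in HFD24, and the median gene by -0.03 and -0.06. On the deposited scale these were 0.05 and -0.06 for the cytosolic members, against -0.22 and -0.23 for all genes. HFD24 minus HFD16, the test of the difference between the 2 durations, had no member past limma's threshold, against 0.0367% of all genes, with 10 members at an unadjusted p under 0.05. The arrays of 11 members did not overlap there (2 higher and 9 lower), or 15.3%, against 16.4% of all genes (6.25% higher and 10.1% lower). Without ND replicate 1, HFD16 replicate 2 or HFD16 replicate 3, the count in HFD16 minus ND was 4, 7 and 6. Without ND replicate 3 it was 15, against 16 in HFD24 minus ND. Over all genes 4511 and 4939 then passed, against 3462 and 3483 with every array. HFD16 replicate 3 also carried muscle RNA, with a summed intensity of 10 muscle markers of 11305 against at most 3074 on any other array, while the muscle-rich small heat shock proteins read 14, 14 and 28 (Hspb3), 99.9, 98.6 and 140.4 (Hspb2), 136, 159 and 145 (Hspb7) and 9582, 13754 and 9699 (Hspb6) on HFD16 replicates 1 to 3. In these deposited intensities Hspb3 and Hspb2 were highest on replicate 3 and Hspb7 and Hspb6 on replicate 2. In the normalized log2 values Hspb3, Hspb2 and Hspb7 were highest on replicate 3 and Hspb6 on replicate 2, with 7.41, 7.43 and 7.46 for Hspb7. The part of muscle RNA in the HFD16 values was not tested.

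The calls depended on how the arrays were scaled. With median centring in place of quantile normalization the members that passed were 7 higher and 2 lower in HFD24 minus ND and 16 higher and 5 lower in HFD16 minus ND. On the deposited scale they were 2 higher and 4 lower, and 4 higher and 5 lower. On that scale the median gene itself differed by -0.23 in HFD24 minus ND, -0.22 in HFD16 minus ND and 0.24 in PTFC minus HFD24. Each array's deposited values were multiples of a step, between 0.675 and 1.46, which was largest on the 3 ND arrays. With that step as a covariate 1 member, Dnaja2, passed in HFD24 minus ND and none in HFD16 minus ND, against 382 and 101 of all genes. The differences of the members that had passed kept their direction there, for example 2.13 for Hspa1a in HFD24 (limma adjusted p = 0.130) and -1.61 for Hspb1 in HFD16 (limma adjusted p = 0.121), both against ND. In PTFC minus HFD24 the calls of Dnajb13, Hspa1l, Dnajc25 and Hspg2 remained with that covariate. There 3 members passed as higher and 2 as lower, and 1697 of all genes passed, against 1145 without it. How far the scaling of the ND arrays enters the diet differences was not tested further. An F test over the 4 groups was passed by 12 members, or 16.7%, against 21.4% of all genes.

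Where a gene had several probes they often differed. The 72 members had 91 probes, and 17 members had more than 1. In 42 of 95 pairs of a dimmer probe and a comparison the dimmer probe had the opposite sign to the probe used, in 4 of them with an unadjusted limma p under 0.05. For Dnaja1, the main heat-inducible J protein of its class, the probe used differed by -0.08 in HFD24 minus ND and by 0.30 in PTFC minus HFD24. A dimmer probe, at a mean log2 intensity of 10.09, differed by -1.14 and 0.99 (limma adjusted p over all probes = 0.000938 and 0.0134). In HFD16 minus ND that dimmer probe differed by -0.52 (limma adjusted p over all probes = 0.0389). Whether Dnaja1 passes thus depends on the probe. Dnaja2 kept its direction in HFD24 minus ND on its dimmer probe, at -0.34.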

How the data were processed

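Total RNA of mouse liver was amplified, labelled with Cy5 and hybridised to single-colour arrays, per the labels' protocols. The authors deposited linear intensity values for 26423 probes on each array. How background was subtracted, arrays scaled and probes chosen is not stated in the labels or file headers used here. Among the values 291 were below 0 and were set to 0, and 133 were 0. From them log2(intensity + 1) was computed, with a pseudocount of 1, and quantile normalized over all probes. The platform table named 21876 probes, and the probe of highest mean was kept for each of 19084 genes. Because of the added 1, differences of dim genes come out too small. Intensities printed are the deposited ones, and overlap of arrays was judged on normalized values.

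All 12 arrays entered 1 linear model of the 4 groups (limma 3.58.1, R 4.3.3; moderated with a trend in eBayes), from which 5 comparisons and an F test were taken. Tests were two-sided, with Benjamini-Hochberg adjustment over all genes and a threshold of 0.05. Counts at an unadjusted p under 0.05 stand without the share over all genes. They therefore cannot be read as many or few. Tested on simulated data for HFD24 minus ND over 19084 genes, the fit recovered 68 of 100 genes changed by 1 log2 and 97 of 100 changed by 2 log2, with 7 false calls. Whether these counts of recovered genes and false calls hold for the measured arrays was not tested. Calls on the measured arrays changed when 1 array was left out or the scaling step was a covariate. Chromosome positions and promoters come from RefSeq, GRCm38.p6, and all 72 symbols were found there.

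The labels give replicate numbers without saying that they pair samples. Over the 18 same-numbered pairs, correlations of deviations from the group means ran from -0.288 to 0.169. Only between ND and HFD16 were all 3 above 0.1 (0.105 to 0.147), so for HFD16 minus ND the blocked value stands beside the calls it changes. The number of arrays limits the precision.

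The members, gene lists and tests were chosen with earlier results of these data known. Values by array are given for every member past the test and for 18 core chaperones where measured, with Dnajb9 and Dnajc3 by range only. Other members at the ends of the brightness range are given by mean or range only. From other lists, the 4 genes of smallest p in HFD24 minus ND or PTFC minus HFD24 could be named, and genes named after their values were seen are said to be so or are the full set past the test. Alternatives were other scalings, a pseudocount of 32, leaving out the dimmest 25% of genes, the mean of all probes, no trend, only the groups compared, a replicate block, the array's scaling step as a covariate and leaving out each array. A block over ND and HFD16 only and leaving out ND replicate 3 together with HFD24 replicate 1 were alternatives chosen after seeing the data.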

Additional observations from a re-analysis of the deposited data

How the results depend on the processing

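With the scaling step as a covariate the counts of members past the test fell to 1 from 8 in HFD24 minus ND, 0 from 12 in HFD16 minus ND and 4 from 12 in the F test. In PTFC minus HFD24 they were 3 higher and 2 lower, against 2 and 2 in the main fit. Over all genes they fell to 382 in HFD24 minus ND and 101 in HFD16 minus ND, and rose to 1697 from 1145 in PTFC minus HFD24. The covariate adds a term and leaves fewer residual degrees of freedom. Median centring gave 21 members in HFD16 minus ND, and 3946 of all genes against 3462 in the main fit. With the replicate block the counts were 7, 10, 0 and 8 in HFD24 minus ND, HFD16 minus ND, HFD24 minus HFD16 and the F test, 1 from 4 in PTFC minus HFD24 and 1 from 0 in PTFC minus ND. Over all genes the block gave 2830 in HFD24 minus ND, 2766 in HFD16 minus ND and 4 in HFD24 minus HFD16. It gave 337 in PTFC minus HFD24 and 318 in PTFC minus ND. Fitting only the 2 groups compared gave 2 in PTFC minus ND. Without ND replicate 3 and HFD24 replicate 1 together the counts were 13 in HFD24 minus ND, 17 in HFD16 minus ND, 4 in PTFC minus ND and 20 in the F test. Leaving out 1 array at a time gave from 4 to 16 in HFD24 minus ND, 0 to 6 in PTFC minus HFD24, 4 to 15 in HFD16 minus ND, 0 to 0 in HFD24 minus HFD16, 0 to 2 in PTFC minus ND and 5 to 20 in the F test. The cause of these shifts was not tested.

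No member that passed changed sign under any alternative. Signs turned for differences that did not pass. With median centring HFD24 minus ND became 0.024 for Hspa5 and 0.065 for Hsp90b1, and HFD16 minus ND became 0.092 for Dnajb14. With 1 array left out, or ND replicate 3 and HFD24 replicate 1 together, HFD24 minus ND ran from -0.26 to 0.020 for Hsp90b1, HFD16 minus ND from -0.35 to 0.058 for Dnajb14, and PTFC minus HFD24 from -0.14 to 0.96 for Hspa1b. With the scaling step as a covariate Hspb1 in PTFC minus ND became 0.13. With 3 arrays in a group, precision is limited for every value.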
